A study of Mus musculus with 16 samples.

Results

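Heart and skeletal muscle of the mouse were compared through the 4 RNA-Seq libraries labelled Heart and Muscle in a set of 16 libraries from 8 tissues. The fed heart library was set against the fed muscle library and the fasting heart library against the fasting muscle library, and a gene was kept when its difference had the same direction in both pairs. Of 55385 genes in the table, 23580 had enough counts to be tested, and 16983 of these (72.0%) were kept, 8740 with the higher level in heart and 8243 with the higher level in muscle. The remaining 6597 genes differed in opposite directions in the 2 pairs or had no difference in a pair. Just inside the rule stood Washc4, with log2 differences (heart minus muscle) of -0.0001 and -0.0906 in the fed and the fasting pair, and just outside it stood Atp2c1, with 0.0594 and -2.96e-06.

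All mice were male C57BL/6 animals, 12 weeks old on arrival, kept on standard chow. The fed group ate freely and the fasting group went without food for 24 h. Equal parts of tissue from 3 mice were pooled for each group, and every combination of tissue and treatment gave 1 library, so that fed heart, fasting heart, fed muscle and fasting muscle had n = 1 library each and each tissue had 2. Within a treatment, heart and muscle came from the same mice, and the fed and the fasting mice were separate groups. The labels do not say which muscle was taken or which chambers the heart samples held. In pooled tissue, fewer cells of a type and less RNA per cell cannot be told apart.

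Both tissues are striated. Their force comes from sarcomeres, in which thick filaments of myosin pull on thin filaments of actin once calcium binds troponin, and most sarcomere proteins exist as separate cardiac and skeletal gene copies. Cardiomyocytes are short, joined end to end by intercalated discs, beat without rest and oxidise mainly fatty acids. Skeletal fibres are long multinucleate cells that contract on command of a motor nerve, and fast fibres draw on glycogen and creatine phosphate.

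The deposited read counts summed to 17215802 and 15258447 in fed and fasting heart and to 24076345 and 30937172 in fed and fasting muscle, within 14245178 to 36069968 over all 16 libraries. Titin alone took 17.2% and 16.9% of the muscle counts and 7.4% and 6.66% of the heart counts, and the 10 highest genes took 37.0% of both muscle libraries against 18.5% and 16.7% of the heart libraries. Levels are therefore given as CPM (counts scaled to a common library size) after TMM scaling, a scaling that uses the bulk of genes and discounts the few very high genes. Per-length levels (RPKM, the same values per kilobase of exon) are used only where different genes are compared. Wherever 2 values follow each other, the fed library comes first and the fasting library second. Log2 differences are heart minus muscle, with the standard error of a fit of tissue and treatment over all 16 libraries, and a value in square brackets is that difference without the library named there, given beside the fitted difference of called genes where leaving it out moved the fold by over 1.5 times. A gene is called when its adjusted p-value is under 0.05, its difference exceeds 1 in size and both pairs have the same direction. No combination of tissue and treatment had a replicate library. These p-values and standard errors therefore rest on how far the 16 libraries depart from the fit of tissue and treatment. That departure mixes fasting responses that differ between tissues with noise of single libraries, which cannot be told apart here. Neither the spread between mice nor that between replicate libraries was measured. A permutation of 2 against 2 libraries cannot reach a p of 0.05.

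By this rule 2657 genes were called higher in heart, 11.3% of the genes tested, and 2115 were called higher in muscle, 8.97%. Of these, 2099 and 1668 were protein-coding. The median size of the difference was 2.01 for the heart genes and 2.04 for the muscle genes, and 436 and 353 genes exceeded 5 in size. In the muscle libraries 231 of the heart genes had no count, and in the heart libraries 134 of the muscle genes had none. In 10517 genes a level of 10 CPM or more was reached in 1 of the 4 libraries. Of these, 9096 (86.5%) had the same direction in both pairs, and of the 1421 others Ddit4, Depp1, Plekhh1 and Myl4 had a difference above 1 in size in each pair. The calls split 55.7% to the heart side. When libraries were scaled by total counts the median of all genes moved from 0.02 to 0.70, a shift of 0.68, and 85.8% of the calls were on the heart side. The split was 73.2% when the library size left out the 10 highest genes, and 87.0% for Fisher's exact test on total counts in both pairs.

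**Figure D1:**
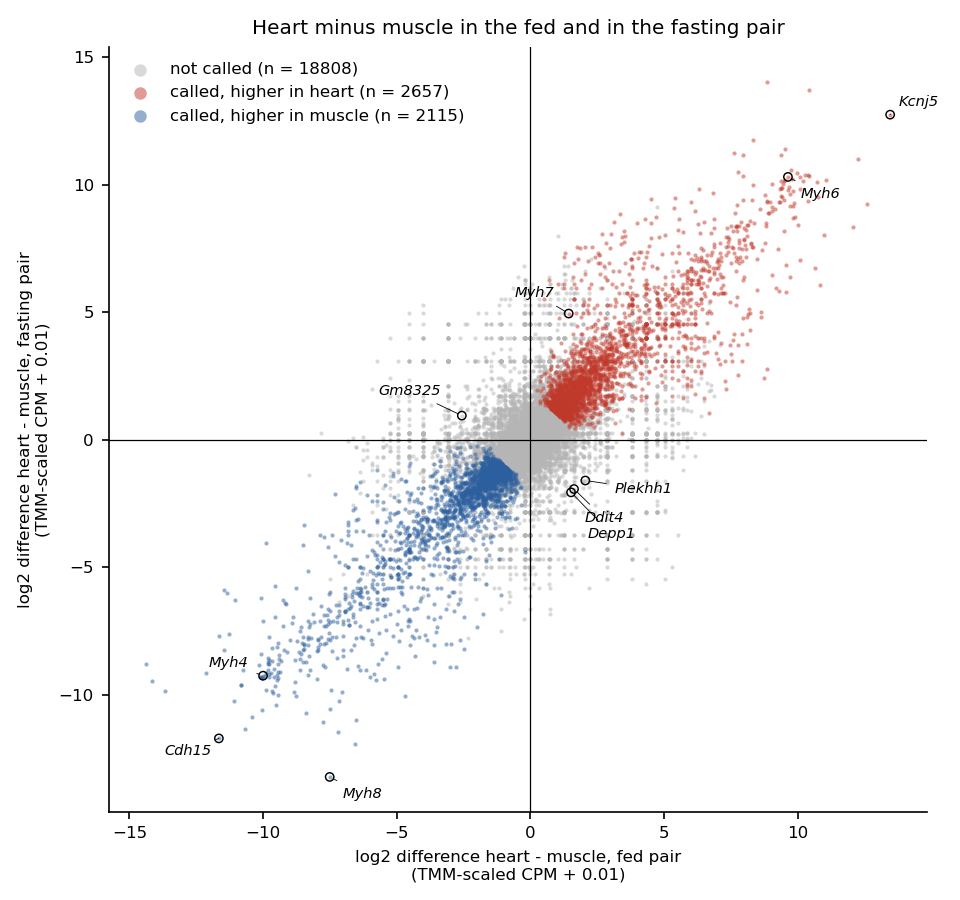
Each point is a gene, with its log2 difference (heart minus muscle, CPM + 0.01) in the fed pair on the horizontal axis and in the fasting pair on the vertical axis, and called genes are coloured by the tissue with the higher level. The 2657 heart genes and the 2115 muscle genes lie in opposite quadrants along the diagonal, with Myh6, Kcnj5, Myh4 and Cdh15 far out, while Ddit4, Depp1, Plekhh1 and Gm8325 lie in the quadrants where the pairs differ in sign.

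The 2 marker genes were called in opposite directions. Myh6, the alpha myosin heavy chain of the adult mouse ventricle, stood at 33818 and 35497 CPM in heart and 42.5 and 28.2 CPM in muscle, a log2 difference of 9.97 ± 0.51 (adjusted p = 2.83e-07). Myh4, the myosin heavy chain of the fastest skeletal fibres (type IIB), stood at 126113 and 140046 CPM in muscle and 123 and 231 CPM in heart, a difference of -9.54 ± 0.57 [-10.23 without fasting heart] (adjusted p = 7.87e-07). Each gene was abundant in the tissue it marks and far below that level in the other. Both were set as markers of these tissues beforehand, so their values describe the libraries and are no separate support for the comparison.

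Start sites of 4 genes called in opposite directions are shown as examples of the sequence that muscle transcription factors read. They are RefSeq promoters of 250 bases before to 50 bases after the start (GRCm38.p6), written 5′ to 3′ on the strand of the gene, with motif matches on either strand in capitals. Myh6 and Tnni3 are high in heart, and Myh4 and Ckm, of muscle creatine kinase, are high in muscle. Their places are chr14:54966558-54966857 on the minus strand for Myh6, chr7:4522479-4522778 on the minus strand for Tnni3, chr11:67237562-67237861 on the plus strand for Myh4 and chr7:19410844-19411143 on the plus strand for Ckm.
Myh6: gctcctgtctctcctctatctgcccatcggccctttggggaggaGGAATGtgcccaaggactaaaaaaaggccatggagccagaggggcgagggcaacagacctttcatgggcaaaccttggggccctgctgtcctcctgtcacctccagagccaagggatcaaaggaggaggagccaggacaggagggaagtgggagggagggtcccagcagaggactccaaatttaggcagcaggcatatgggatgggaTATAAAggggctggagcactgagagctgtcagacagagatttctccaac
Tnni3: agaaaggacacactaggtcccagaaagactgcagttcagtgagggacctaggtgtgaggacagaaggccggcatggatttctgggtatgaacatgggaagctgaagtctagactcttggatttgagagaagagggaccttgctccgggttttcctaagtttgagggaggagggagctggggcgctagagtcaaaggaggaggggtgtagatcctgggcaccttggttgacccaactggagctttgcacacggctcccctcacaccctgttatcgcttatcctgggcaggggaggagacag
Myh4: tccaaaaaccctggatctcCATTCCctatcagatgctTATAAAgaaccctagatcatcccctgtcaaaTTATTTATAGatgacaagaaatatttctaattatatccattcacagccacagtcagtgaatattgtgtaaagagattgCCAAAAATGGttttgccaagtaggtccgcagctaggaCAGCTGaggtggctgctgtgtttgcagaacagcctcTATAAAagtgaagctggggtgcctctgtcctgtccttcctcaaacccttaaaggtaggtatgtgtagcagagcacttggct
Ckm: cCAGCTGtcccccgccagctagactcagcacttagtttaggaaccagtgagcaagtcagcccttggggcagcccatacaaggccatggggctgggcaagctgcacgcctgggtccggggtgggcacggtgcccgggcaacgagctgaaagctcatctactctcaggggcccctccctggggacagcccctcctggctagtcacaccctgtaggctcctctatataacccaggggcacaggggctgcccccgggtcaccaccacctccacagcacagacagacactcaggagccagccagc

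Searched on both strands were the M-CAT element of Tead factors, whose letters are CATTCC. Added were an E-box of MyoD-type factors, with the letters CAGCTG. A site of Gata factors was searched as AGATAA. The promoter element bound by the general machinery was searched as TATAAA, and the MEF2 site, in a strict and a wide form, and the CArG box bound by Srf were searched by name. Myh4 held 7 matches: CATTCC at 231 bases before the start, TATAAA at 213 and 31 and, on the other strand, at 179, a MEF2 match at 182 that overlaps the TATAAA at 179, a CArG box at 104 and CAGCTG at 67. Myh6 held 2, CATTCC on the other strand at 206 bases before the start and TATAAA at 1 base after it, Ckm held only CAGCTG at 249 bases before it, and the Tnni3 window held none. These are descriptions of letters and not of binding. Among 14117 tested genes with a promoter sequence, CAGCTG was found in 16.1% of all windows, in 17.5% of the windows of genes called higher in heart and in 19.3% of those called higher in muscle. The corresponding shares were 12.9%, 15.0% and 13.9% for CATTCC, 7.78%, 9.65% and 8.14% for AGATAA, 8.91%, 10.5% and 10.3% for TATAAA, 2.11%, 2.31% and 3.03% for the wide MEF2 site (0.616%, 0.751% and 1.37% for its strict form) and 1.33%, 1.5% and 2.16% for the CArG box.

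Myh6, Myh7 and Myh7b carry microRNAs in their introns that are close in sequence to each other, and these host genes were called higher in heart. The mature sequences are shown because their seeds (bases 2 to 8, in capitals) are nearly the same, so that they form a family across the host genes.
mmu-miR-208a-3p: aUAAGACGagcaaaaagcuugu
mmu-miR-208b-3p: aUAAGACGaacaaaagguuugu
mmu-miR-499-5p: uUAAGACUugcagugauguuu

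They lie at chr14:54949072-54949093 and chr14:54975710-54975731 on the minus strand and chr2:155622893-155622913 on the plus strand (RefSeq, GRCm38.p6). The seed is identical in the microRNAs of Myh6 and Myh7 and differs from that of the microRNA in Myh7b in its last letter only. The host Myh7b, a slow-type myosin, stood at 158 and 68.6 CPM in heart and 4.05 and 2.47 CPM in muscle, a difference of 5.05 ± 0.33 (adjusted p = 1.55e-06). The counts measure the host transcripts and not the mature microRNAs.

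Among the myosin heavy chains, Myh6 made up 97.9% and 94.6% of the summed RPKM of 9 genes in fed and fasting heart, and Myh4 made up 92.6% and 94.3% in fed and fasting muscle. Myh7, the beta chain of the heart and of slow skeletal fibres, took 1.17% in fed heart and 4.46% in fasting heart, and 0.098% and 0.033% in fed and fasting muscle. Myh1 (type IIX) took 4.26% and 4.0% and Myh2 (type IIA) 2.96% and 1.64% of the muscle sum. The muscle samples therefore carried mainly the transcripts of fast fibres, with slow-fibre Myh7 far below Myh2. These genes have long near-identical stretches, so reads may have been assigned among them with error, within the group of skeletal genes and between Myh6 and Myh7.

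Of 23 thick filament genes tested, 9 were called higher in heart and 13 higher in muscle, with a median log2 difference of -7.87 against 0.02 over all genes tested. Only 1 member was not called. Myl2, the regulatory light chain of the ventricle, stood at 8465 and 7394 CPM in heart and 112 and 52.7 CPM in muscle, and Mylpf, its fast skeletal counterpart, at 10718 and 9346 CPM in muscle and 12.1 and 14.9 CPM in heart. Mybpc3, the cardiac myosin-binding protein C, stood at 4639 and 4162 CPM in heart and 5.1 and 4.88 CPM in muscle (difference 9.78 ± 0.40, adjusted p = 1.00e-07), against 10476 and 12082 CPM in muscle and 43 and 53.1 CPM in heart for its fast skeletal copy Mybpc2 (difference -7.87 ± 0.51, adjusted p = 1.45e-06). The kinases that phosphorylate the light chains split in the same way. Mylk3, the cardiac kinase, differed by 10.16 ± 0.38 and Mylk2, the skeletal kinase, by -9.25 ± 0.49 [-10.41 without fasting heart, -8.60 without fed heart] (adjusted p = 8.06e-08 and 3.33e-07). Mybph, a binding protein of skeletal fibres, was among the 10 largest muscle differences of genes with at least 10 CPM, at 129 and 77.6 CPM in muscle and 0 and 0.0748 CPM in heart. Myl7, the atrial light chain, was read at 16 CPM in fed heart and 1.05 CPM in fasting heart and had no count in muscle, so that its level over both heart libraries was at least 89.5-fold higher (at least 10.3-fold without fed heart and at least 157-fold without fasting heart).

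Of 19 thin filament genes, 6 were called higher in heart and 9 higher in muscle (median -1.22). Troponin, the calcium switch of the filament, is built from 3 subunits, and for each of them the cardiac gene was called higher in heart and the fast skeletal gene higher in muscle. Cardiac troponin I (Tnni3) stood at 2239.8 and 2110.2 RPKM in heart and 3.05 and 1.83 RPKM in muscle, and fast skeletal troponin I (Tnni2) at 7726 and 7764 RPKM in muscle and 7.04 and 12.5 RPKM in heart. Cardiac troponin T (Tnnt2) differed by 9.56 ± 1.02 and fast skeletal troponin T (Tnnt3) by -9.61 ± 0.59 [-10.25 without fasting heart] (adjusted p = 4.54e-05 and 1.06e-06). Troponin C followed with 6.69 ± 0.38 for the cardiac and slow gene Tnnc1 and -9.56 ± 0.53 for the fast gene Tnnc2 (adjusted p = 5.98e-07 and 4.58e-07). Cardiac actin (Actc1) was read at 11128 and 6265 CPM in heart and 404 and 402 CPM in muscle, and skeletal actin (Acta1) at 43802 and 42751 CPM in muscle and 386 and 318 CPM in heart. Actins are nearly identical in sequence, and the low level of each in the other tissue cannot be told apart from misassigned reads. Neb, the giant protein that runs along skeletal thin filaments, stood at 40005 and 46305 CPM in muscle and 58.3 and 119 CPM in heart (difference -8.94 ± 0.61 [-9.54 without fasting heart]), and its short relative Nebl at 779 and 588 CPM in heart and 3.22 and 3.33 CPM in muscle (difference 7.75 ± 0.55). Tmod1, which caps the pointed end, stood at 391 and 345 CPM in heart and 396 and 437 CPM in muscle and was not called, and its fast-fibre copy Tmod4 was called with -4.47 ± 0.18 (adjusted p = 1.00e-07).

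Of 26 genes of the Z disc, the M band and titin, 4 were called higher in heart and 15 higher in muscle (median -1.58). Ttn itself, the spring that runs from Z disc to M band, was lower in heart, at 81323 and 76005 CPM in heart and 310012 and 323612 CPM in muscle (difference -2.02 ± 0.42, adjusted p = 0.00355). Actn3, the alpha-actinin of fast fibres, stood at 11578 and 12778 CPM in muscle and 11 and 19.9 CPM in heart. Actn2, the alpha-actinin of heart and all fibres, stood at 1569.8 and 1992 CPM in heart and 801 and 859 CPM in muscle, and its call was lost when any of the 4 libraries was left out (adjusted p = 0.0712 to 0.263) and without the treatment term (0.057). Z-disc ligands of calcineurin exchanged copies, with Myoz2 at 1057 and 1356 CPM in heart and 135 and 75.3 CPM in muscle and Myoz1 at 2989 and 2936 CPM in muscle and 4.28 and 6.58 CPM in heart. Ankrd1, a stretch-responsive protein of the cardiac I band, stood at 1127 and 2410.0 CPM in heart and 6.82 and 7.72 CPM in muscle (difference 7.92 ± 0.48 [7.14 without fasting heart], adjusted p = 9.10e-07), and Csrp3, the muscle LIM protein, at 1279 and 1325 CPM in heart and 65.1 and 61 CPM in muscle (difference 4.37 ± 0.35, adjusted p = 6.00e-06). Tcap, which ties titin at the Z disc, was higher in muscle (difference -1.62 ± 0.33, adjusted p = 0.00305), and under total counts its difference fell to -0.89.

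Pairs of genes that encode the cardiac and the skeletal version of the same part were then set side by side per length, as the share of the heart-type gene in the summed RPKM of both. Of 33 pairs, 27 had both members called in their own tissue, 29 heart-type members were called higher in heart and 30 muscle-type members higher in muscle. In 16 pairs the heart-type share exceeded 90% in both heart libraries and stayed under 10% in both muscle libraries, and in 25 it exceeded 50% in heart and stayed under 50% in muscle. For regulatory light chains the share of Myl2 against Mylpf was 99.7% and 99.6% in heart and 0.567% and 0.306% in muscle. For the calcium pump of the sarcoplasmic reticulum, Atp2a2 against Atp2a1 made 99.7% and 99.3% in heart and 0.463% and 0.252% in muscle. The pairs were picked as heart-type and muscle-type copies with earlier results of these data known, so these counts describe the pairs and do not stand for all parts of the cell.

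The exceptions were of 2 kinds. In some pairs of metabolic enzymes the muscle-type gene stayed the higher of the pair in both tissues: Ckb made up 1.7% and 1.35% of Ckb and Ckm in heart, Eno1 2.34% and 2.13% of Eno1 and Eno3, and Pgam1 2.14% and 2.42% of Pgam1 and Pgam2. Other metabolic pairs did not, with Ldhb at 82.8% and 85.0% of Ldhb and Ldha in heart and Pfkfb2 at 83.4% and 61.2% of Pfkfb2 and Pfkfb1. The brain-type glycogen phosphorylase Pygb reached 34.6% and 43.9% of the sum with Pygm in heart against 0.0998% and 0.0892% in muscle. In other pairs the heart-type gene was also present in muscle. Lmod2, which nucleates actin filaments, made 34.2% and 70.3% of the sum with Lmod3 in muscle and 79.4% and 94.2% in heart. Jph2, which holds the membrane couplings of the calcium store together, made 57.4% and 41.3% of the sum with Jph1 in muscle and 93.4% and 85% in heart. Pln, the phospholamban that brakes the pump, made 91.2% and 74.6% of the sum with sarcolipin (Sln) in muscle, but both stood there at low levels, with Pln at 4.13 and 3.02 RPKM and Sln at 0.398 and 1.03 RPKM. Fkbp1a, whose sequence is shared by pseudogenes, outweighed Fkbp1b in all 4 libraries.

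**Figure D2:**
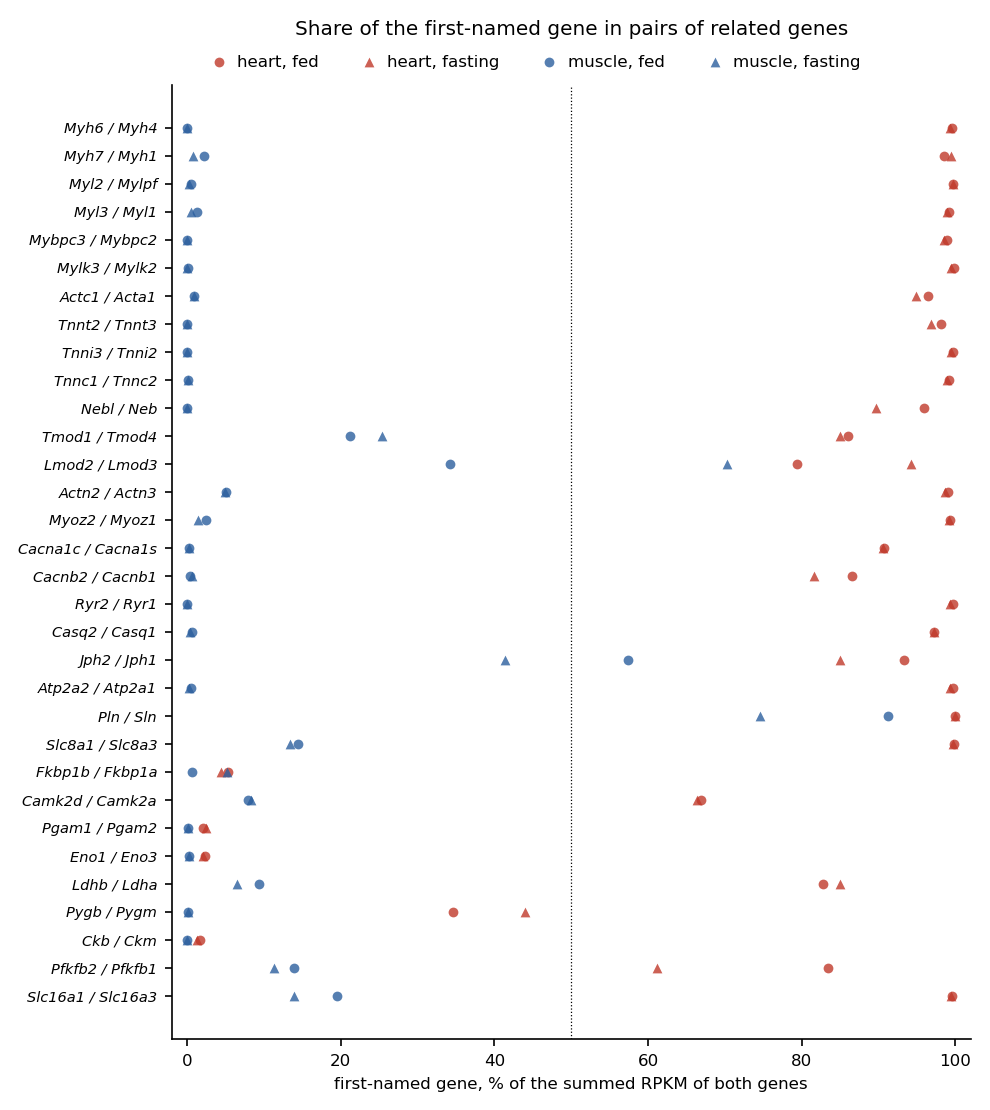
Each row is a pair of genes for the same part (1 of the 33 pairs is not drawn), and each point gives the share (%) of the heart-type gene in the summed RPKM of both genes in 1 of the 4 libraries. The heart points lie at the right and the muscle points at the left for most of the pairs, while the pairs of Fkbp1b, Pgam1, Eno1 and Ckb lie at the left in both tissues and Pln lies at the right in both.

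Some of the most abundant genes of a tissue were read at low levels in the other. Of 74 genes called higher in muscle with at least 1000 CPM in both muscle libraries, 16 stood in heart at 0.0879% to 0.146% of their muscle level in the fed pair (median 0.105%) and at 0.111% to 0.257% in the fasting pair (median 0.165%), and all 16 had the higher percentage in the fasting pair. They were Mylk2, Tnni2, Tnnt3, Actn3, Myh1, Myh4, Tnnc2, Myh2, Ryr1, Pvalb, Mylpf, Atp2a1, Mybpc1, Ampd1, Myoz1 and Neb. The next gene, Car3, stood at 0.277% and 0.334%. Of 39 heart genes at that level, 7 (Mybpc3, Myh6, Tnni3, Dsp, Pln, Ryr2 and Tnnt2) stood in muscle at 0.11% to 0.155% in the fed pair (median 0.140%) and 0.0793% to 0.135% in the fasting pair (median 0.108%), and 1 of them had the higher percentage in the fasting pair. The next gene, Ankrd1, stood at 0.605% and 0.320%. The 0.3% limit, asked of both pairs, was chosen after the values were seen.

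Low levels of the same genes were also read in other tissues. Myh4 stood at 140.0 and 134 CPM in liver, 66.5 and 65.8 CPM in white adipose tissue and 1224 and 646 CPM in brown adipose tissue, but at 0.26 and 0.286 CPM in spleen, 0.374 and 0.188 CPM in kidney and 1.04 and 0.681 CPM in lung. Myh6 stood at 15 and 13.9 CPM in spleen, 24.6 and 21.7 CPM in kidney and 351 and 229 CPM in lung, but at 0.0651 and 0 CPM in liver. The low levels of Myh4 therefore lay in liver and adipose tissue and those of Myh6 in spleen, kidney and lung. What carries these reads, and what part it has in the low levels of heart and muscle, was not tested.

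**Figure D3:**
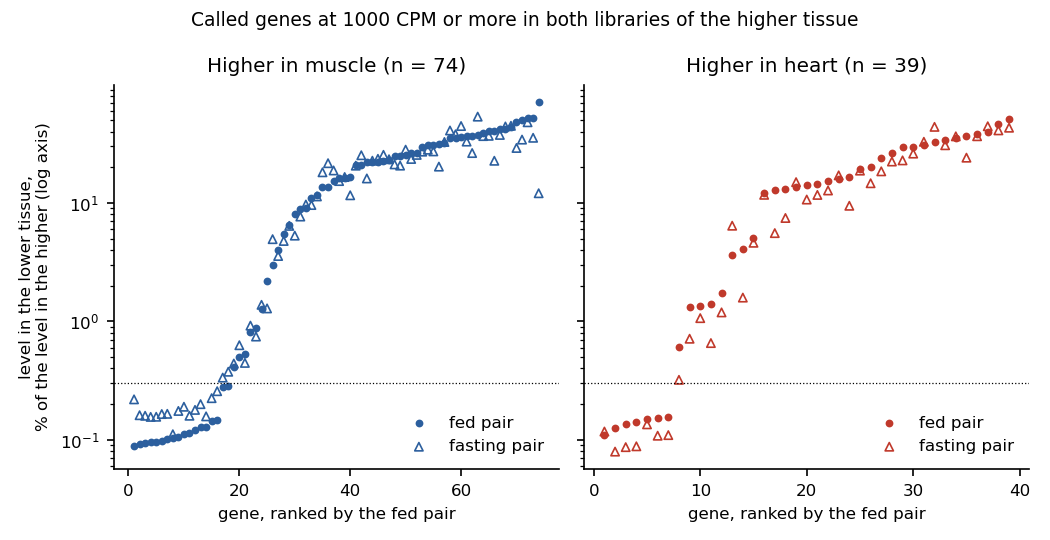
For 74 muscle genes and 39 heart genes of at least 1000 CPM, the level in the lower tissue is drawn as a percentage of the level in the higher tissue on a log axis, in the fed and the fasting pair, with a dotted line at 0.3%. At the lower end 16 muscle genes and 7 heart genes lie between 0.0793% and 0.257%, and Car3 follows at 0.277% in the fed pair.

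The calcium machinery was divided along the same line. Of 33 genes, 8 were called higher in heart and 19 higher in muscle (median -1.53). In skeletal fibres the voltage sensor Cacna1s opens the release channel Ryr1 by touch, whereas in heart calcium that enters through Cacna1c opens Ryr2. Ryr2 stood at 4841 and 4344 CPM in heart and 7.35 and 4.69 CPM in muscle (difference 9.61 ± 0.30, adjusted p = 2.57e-08), and Ryr1 at 10528 and 12666 CPM in muscle and 11.1 and 22.1 CPM in heart (difference -9.44 ± 0.52 [-10.19 without fasting heart], adjusted p = 4.60e-07). Cacna1c stood at 653 and 666 CPM in heart and 18.9 and 14 CPM in muscle, and Cacna1s at 2456 and 2247 CPM in muscle and 20.1 and 20.6 CPM in heart. The accessory subunits followed, with Cacnb2 higher in heart by 5.46 ± 0.38 and Cacnb1 higher in muscle (difference -4.56 ± 0.29). The reuptake side was split between the pumps. Atp2a2, the pump of heart and slow fibres, stood at 17365 and 13899 CPM in heart and 234 and 148 CPM in muscle with its brake Pln at 7635 and 6186 CPM in heart and 11.4 and 8.34 CPM in muscle, and Atp2a1, the pump of fast fibres, at 28750.4 and 33494 CPM in muscle and 34.8 and 59.8 CPM in heart. Sln, another brake, which is atrial in the mouse heart, stood at 3.89 and 0.15 CPM in heart and 0.525 and 1.36 CPM in muscle, with log2 differences of 2.87 and -3.10 in the pairs, and was not called.

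Stores and buffers of calcium also had their own copies. Casq2, the cardiac calsequestrin, differed by 5.05 ± 0.26 and Casq1, the fast skeletal one, by -7.68 ± 0.51 (adjusted p = 2.83e-07 and 1.66e-06). Pvalb, the parvalbumin that speeds relaxation of fast fibres, stood at 12736 and 11236 CPM in muscle and 14.1 and 21.3 CPM in heart. Jsrp1, a protein of the skeletal junction between membrane and store, stood at 332 and 313 CPM in muscle and 0.447 and 0.224 CPM in heart (difference -9.98 ± 0.55 [-9.36 without fasting muscle, -10.78 without fed muscle], adjusted p = 1.12e-06). The exchangers that expel calcium for sodium were Slc8a1 in heart, at 1141 and 911 CPM in heart and 89.2 and 114 CPM in muscle, and Slc8a3 in muscle, at 149 and 209.7 CPM in muscle and 0.575 and 0.673 CPM in heart. Camk2d, the main calmodulin kinase of heart, was higher there by 1.15 ± 0.21 and fell under the limit of 1 without the fed heart or the fasting muscle library (0.79 and 0.98), while Camk2a was higher in muscle (difference -3.37 ± 0.31, adjusted p = 1.74e-05).

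Of 24 ion channel genes, 13 were called higher in heart and 7 higher in muscle (median 1.31). Kcnj5, a subunit of the potassium channel that acetylcholine opens to slow the heart, had the largest fitted difference of all heart genes with at least 10 CPM, with 113 and 68.4 CPM in heart and no count in muscle, at least 908-fold higher. Without a muscle count the size of its fitted difference is not set, and Mylk3, with counts in both tissues, had a larger fold (1148) than this limit. Kcnj5 acts with a second subunit. Its partner Kcnj3 stood at 133 and 91.6 CPM in heart and 1.27 and 0.926 CPM in muscle (difference 6.66 ± 0.41, adjusted p = 1.36e-05). Kcnip2, which belongs to the fast outward current of the ventricle, stood at 191 and 274 CPM in heart and 0.825 and 1.91 CPM in muscle (difference 7.49 ± 0.69), and Kcnk3, a background potassium channel, at 225 and 217 CPM in heart and 2.02 and 1.3 CPM in muscle (difference 7.09 ± 0.45 [7.73 without fed muscle]). Scn4a, the sodium channel of skeletal fibres, stood at 1076 and 1076 CPM in muscle and 59.1 and 51.3 CPM in heart. On the muscle side, Clcn1, the chloride channel that stabilises the fibre membrane, differed by -4.41 ± 0.45 (adjusted p = 3.40e-05) and the potassium channel Kcnc1 by -6.20 ± 0.49 (adjusted p = 5.91e-06). Kcnj2, the inward rectifier of both tissues, was higher in muscle (difference -1.37 ± 0.35), and this call was lost without the fed heart, fasting heart or fasting muscle library (adjusted p = 0.0706 to 0.123) and under total counts (0.147).

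The genes of the intercalated disc were mostly heart genes, with 11 of 14 called higher in heart and 1 higher in muscle (median 3.13). Dsp, the desmoplakin that anchors intermediate filaments at the disc, stood at 2729 and 2669 CPM in heart and 3.82 and 2.35 CPM in muscle (difference 9.77 ± 1.39 [10.38 without fed muscle], adjusted p = 0.000338). Fhl2, a LIM protein of cardiomyocytes, stood at 1943 and 822 CPM in heart and 6.45 and 2.16 CPM in muscle (difference 8.34 ± 0.51 [9.13 without fed muscle], adjusted p = 1.07e-06), and Jup, the plakoglobin of desmosomes and adherens junctions, differed by 1.35 ± 0.16 (adjusted p = 9.59e-05). The exception was Xirp2, an actin-binding repeat protein that also lies at the tendon junction of fibres, at 8771 and 7945 CPM in muscle and 2167 and 1679 CPM in heart (difference -2.13 ± 0.37, adjusted p = 0.00124). Gja3, a connexin, was not on this list and was chosen by the size of its difference. It stood at 21.5 and 11.5 CPM in heart with no count in muscle, at least 166-fold higher, and was not called with DESeq2 (adjusted p = 0.135).

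Of 11 genes of the neuromuscular junction, 7 were called higher in muscle and 1 higher in heart (median -2.99). Musk, the kinase that clusters acetylcholine receptors under the nerve ending, stood at 100.5 and 164 CPM in muscle and 0.575 and 0.524 CPM in heart (difference -7.85 ± 0.53, adjusted p = 2.06e-06), and the receptor subunit Chrnb1 at 39.1 and 56.2 CPM in muscle and 5.87 and 6.06 CPM in heart (difference -2.99 ± 0.21, adjusted p = 2.63e-06). Rapsn, which anchors the receptors, differed by -1.16 ± 0.36 and lost its call when any of the 4 libraries was left out (adjusted p = 0.0761 to 0.19), under total counts (0.39) and without the treatment term (0.1). Agrn, a matrix protein that the nerve and other cells make, was the gene called higher in heart, at 79.5 and 79.4 CPM in heart and 31.9 and 28.8 CPM in muscle (difference 1.39 ± 0.18, adjusted p = 0.000174). The dystrophin complex, which links the cytoskeleton to the matrix in both tissues, was little divided. None of its 16 genes was called higher in heart and 3 were called higher in muscle, whereas under total counts 5 and 2 were called and its median of -0.07 turned to 0.66. The called genes included the protease gene Capn3 at 83.3 and 75.5 CPM in muscle and 1.09 and 0.823 CPM in heart (difference -6.38 ± 0.45) and Dtna (difference -1.08 ± 0.31), whose call was lost without the fed heart, fasting heart or fed muscle library (adjusted p = 0.0929 to 0.14) and under total counts (0.352).

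**Figure D4:**
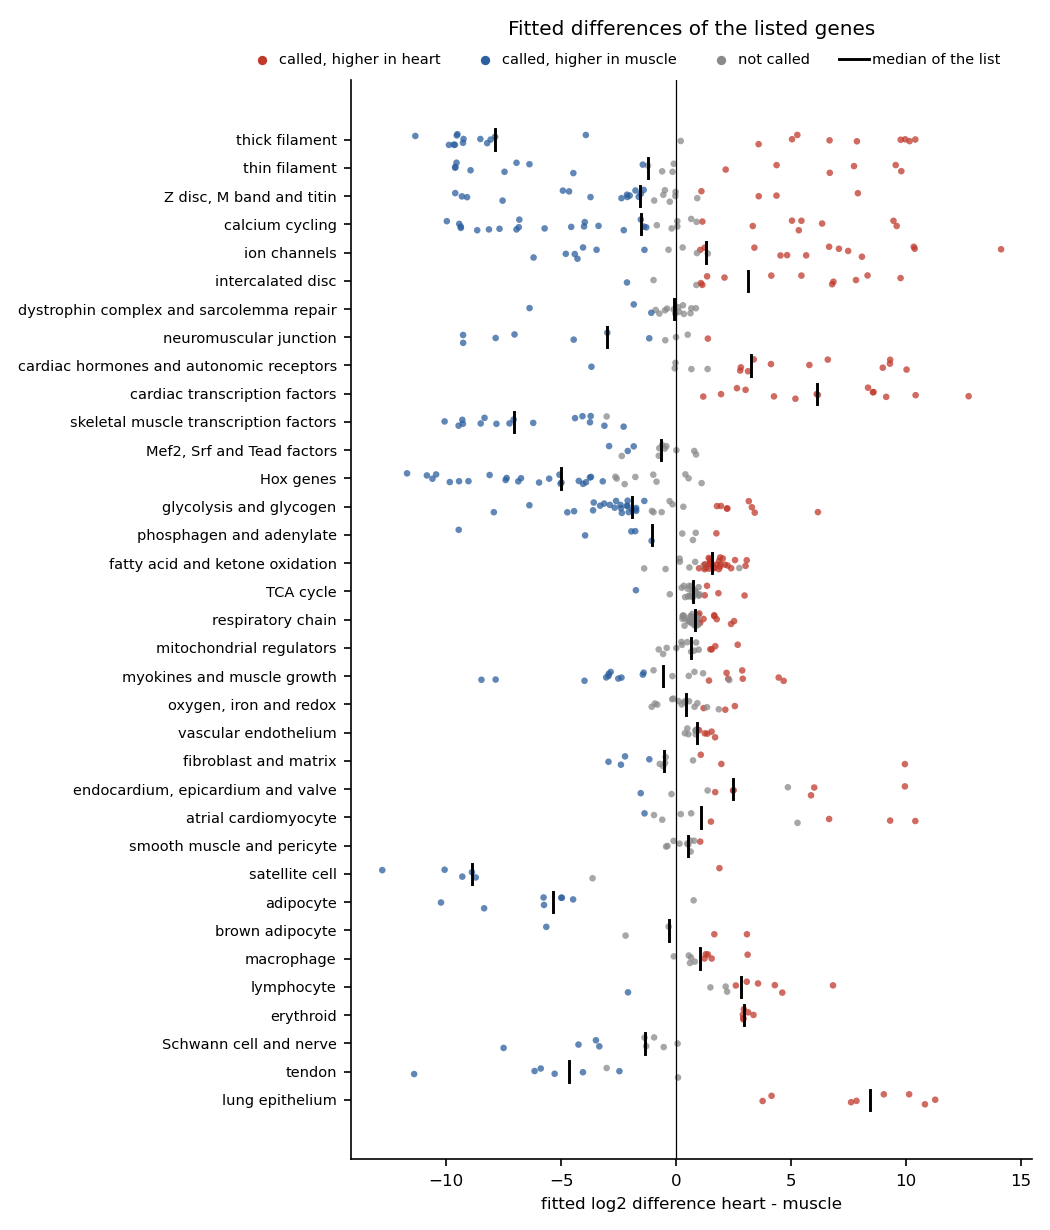
Each row is 1 of 35 gene lists and each point the fitted log2 difference (heart minus muscle) of a listed gene, coloured by call, with a bar at the median of the list. Cardiac transcription factors (median 6.15) and lung epithelium genes (8.45) lie on the heart side, Hox genes (-5.01), skeletal transcription factors (-7.07) and satellite cell genes (-8.88) on the muscle side, and thick filament genes far out on both sides. Fitted values of genes with no count in a tissue have no set size. With these genes at the limit of a floor of 3 counts, the medians were 5.17 for lung epithelium, -5.63 for skeletal transcription factors and -4.80 for satellite cell genes. Those of cardiac transcription factors and Hox genes did not change.

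Regulators of the 2 lineages, listed by the lineage they are known for, were read next. All 14 cardiac transcription factors tested were called higher in heart (median 6.15), while 16 of 17 skeletal transcription factors were called higher in muscle and none higher in heart (median -7.07). With genes that had no count in a tissue set at the limit of a floor of 3 counts, these medians were 6.15 and -5.63. Nkx2-5, a homeobox factor of the cardiac lineage, stood at 58.1 and 48.7 CPM in heart and 0.225 and 0.0617 CPM in muscle (difference 8.57 ± 0.73 [9.44 without fed muscle], adjusted p = 3.58e-05). Gata4 stood at 132 and 103 CPM in heart and 0.225 and 0.185 CPM in muscle (difference 9.15 ± 0.52, adjusted p = 1.44e-06), and Hand2 at 50.2 and 42.6 CPM in heart and 0.225 and 0.0617 CPM in muscle (difference 8.36 ± 0.81 [7.68 without fasting muscle, 9.44 without fed muscle], adjusted p = 2.53e-05). Irx4, a homeobox factor of the ventricle, was read at 48.5 and 20.4 CPM in heart with no count in muscle, at least 350.0-fold higher (at least 201-fold without fed heart). On the muscle side, Myf6, the MyoD-family factor of adult fibres, stood at 117 and 249 CPM in muscle and 0.255 and 0.224 CPM in heart (difference -9.46 ± 0.50 [-8.73 without fasting muscle, -10.20 without fed muscle], adjusted p = 2.06e-06). Myf5 of the same family was read at 3.22 and 2.59 CPM in muscle with no count in heart, at least 27.8-fold higher. Tbx15, a factor of glycolytic fibres, stood at 389.9 and 416 CPM in muscle and 1.09 and 1.42 CPM in heart (difference -8.34 ± 0.36) and Maf, a factor linked to fast fibres, at 477 and 266 CPM in muscle and 26.8 and 28.5 CPM in heart (difference -3.75 ± 0.28).

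Factors that serve both tissues differed less. Of 12 Mef2, Srf and Tead genes, none was called higher in heart and 3 were called higher in muscle, whereas under total counts 2 and 2 were called and the median of -0.67 turned to 0.06. Mef2c stood at 1267 and 849 CPM in muscle and 152 and 125 CPM in heart (difference -2.91 ± 0.19, adjusted p = 1.55e-06) and Tead4 at 23 and 11.3 CPM in muscle and 3.77 and 4.11 CPM in heart (difference -2.10 ± 0.31 [-1.49 without fed muscle], adjusted p = 0.00047). Mrtfa, an Srf coactivator, was called as well, but lost its call without the fed heart or the fed muscle library (adjusted p = 0.092 to 0.0948) and under total counts (0.0632).

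Hox genes, which record the position of a cell along the body and limb axes, were on the muscle side. Of 32 tested, 23 were called higher in muscle and none higher in heart (median -5.01). Hoxc11, of the posterior group used in hind limbs, was read at 13.6 and 18.8 CPM in muscle with no count in heart, at least 159.5-fold higher, and Hoxc10 at 52.5 and 50.3 CPM in muscle and 0.0638 and 0.0748 CPM in heart (a ratio of pooled counts of 745 (95% counting interval 206 to 6157), adjusted p = 5.59e-06). Hoxd8 and Hoxd9 differed by -5.96 ± 0.37 and -5.52 ± 0.47 (adjusted p = 1.07e-06 and 1.71e-05). En1, a homeobox gene outside this cluster family, was also among the largest muscle differences, with 10.6 and 15.5 CPM in muscle and no count in heart, at least 128-fold higher. With DESeq2, neither Hoxc11 nor En1 was called (adjusted p = 0.148 and 0.147). Fibres, connective tissue and other cells of a limb can carry Hox transcripts, and the cells behind these counts were not resolved.

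Of 16 genes for cardiac hormones and autonomic receptors, 11 were called higher in heart and 1 higher in muscle (median 3.26). Nppa, the atrial natriuretic peptide, stood at 124 and 136 CPM in heart and 0.375 and 0.123 CPM in muscle (difference 9.32 ± 0.87 [8.16 without fasting heart, 10.57 without fed heart], adjusted p = 5.91e-05), and Nppb, the related peptide of ventricles, at 169 and 343 CPM in heart and 0.375 and 0.432 CPM in muscle (difference 9.31 ± 0.99 [8.10 without fasting heart, 10.40 without fed heart], adjusted p = 0.000229). Corin, the protease that activates the atrial peptide, stood at 325 and 523 CPM in heart and 0.6 and 1.05 CPM in muscle (difference 9.0 ± 1.05, adjusted p = 8.26e-05).

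Energy metabolism divided by fuel. Of 34 genes of fatty acid and ketone oxidation, 26 were called higher in heart and none higher in muscle (median 1.55), whereas of 37 genes of glycolysis and glycogen, 8 were called higher in heart and 23 higher in muscle (median -1.91). The fatty acid carrier Fabp3 stood at 3052 and 3977 CPM in heart and 366 and 465 CPM in muscle (difference 3.08 ± 0.29, adjusted p = 2.21e-05), the membrane transporter Cd36 at 2675 and 4476 CPM in heart and 514 and 838 CPM in muscle (difference 2.40 ± 0.24, adjusted p = 2.76e-05), and Acaa2, the thiolase that ends each round of beta-oxidation, at 983 and 1106 CPM in heart and 183 and 167 CPM in muscle (difference 2.57 ± 0.32, adjusted p = 0.000146). Among the glycolytic genes, Aldoa, the muscle aldolase, stood at 21929.6 and 23695 CPM in muscle and 2532 and 2687 CPM in heart (difference -3.13 ± 0.35, adjusted p = 6.85e-05), and Eno3, the muscle enolase, at 7819.7 and 7149 CPM in muscle and 1257 and 1093 CPM in heart (difference -2.67 ± 0.30, adjusted p = 6.87e-05). Pygm, which releases glucose phosphate from glycogen, differed by -3.30 ± 0.30 (adjusted p = 1.71e-05).

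The glycolytic genes called higher in heart were for the most part other copies of the same enzymes. Hk1, the hexokinase copy of heart and brain, stood at 216 and 128 CPM in heart and 18.7 and 13.1 CPM in muscle (difference 3.43 ± 0.24, adjusted p = 2.37e-06). Pygb differed by 6.18 ± 0.48 and the phosphofructokinases Pfkl and Pfkp by 3.17 ± 0.29 and 2.22 ± 0.20 (adjusted p = 5.24e-06, 1.61e-05 and 1.46e-05). The lactate dehydrogenases exchanged rank. Ldhb, whose subunit favours the use of lactate, stood at 772 and 764 RPKM in heart and 101 and 56.9 RPKM in muscle, and Ldha, whose subunit favours its production, at 986 and 817 RPKM in muscle and 160.1 and 135 RPKM in heart. The lactate carriers did the same, with Slc16a1, which takes lactate up, higher in heart by 2.23 ± 0.34 and Slc16a3, the exporter of glycolytic fibres, at 505 and 612 CPM in muscle and 2.17 and 2.39 CPM in heart (difference -7.93 ± 0.33, adjusted p = 1.00e-07).

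Of 9 phosphagen and adenylate genes, 1 was called higher in heart and 5 higher in muscle (median -1.06), against 3 and 3 under total counts. Ckm, which recharges ATP from creatine phosphate, stood at 31073 and 30389 CPM in muscle and 2014 and 1944 CPM in heart (difference -3.96 ± 0.33, adjusted p = 9.34e-06). Ampd1, the AMP deaminase of fast fibres, stood at 2177 and 1664 CPM in muscle and 2.81 and 2.62 CPM in heart (difference -9.46 ± 0.41, adjusted p = 1.04e-07). Ckb, the brain-type creatine kinase, was the gene called higher in heart (1.76 ± 0.45), and lost this call without the fed heart (adjusted p = 0.0647) or the fasting muscle library (0.103).

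Most nuclear genes of the mitochondrial machinery lay below the limit of 1 on the heart side. Of 40 respiratory chain genes, 8 were called higher in heart and none higher in muscle (median 0.83), and of 25 genes of the TCA cycle, 4 were called higher in heart and 1 higher in muscle (median 0.72). The share for the TCA cycle is not far from the 11.3% of all genes tested. These counts depend on the scaling, since under total counts 40 and 22 were called higher in heart. Idh2, the mitochondrial isocitrate dehydrogenase, stood at 2071 and 2656 CPM in heart and 343 and 251 CPM in muscle (difference 2.98 ± 0.23, adjusted p = 4.24e-06), and Mdh1, of the malate shuttle, at 2250.2 and 2042 CPM in heart and 669 and 532 CPM in muscle (difference 1.84 ± 0.19, adjusted p = 3.82e-05). Cox7a1, the muscle and heart copy of a cytochrome oxidase subunit, differed by 1.67 ± 0.15 (adjusted p = 1.70e-05) and Cox4i1 by 1.20 ± 0.15 (adjusted p = 0.000134). Pcx, the pyruvate carboxylase, was the gene called higher in muscle, at 152 and 179 CPM in muscle and 44.6 and 54.2 CPM in heart (difference -1.75 ± 0.35, adjusted p = 0.00327). All 37 mitochondrially encoded genes had 0 counts in all 16 libraries, so the subunits they encode were not measured.

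Of 15 regulators of mitochondrial genes, 4 were called higher in heart (8 under total counts) and none higher in muscle (median 0.66). Esrrb, an orphan receptor, stood at 46 and 43.8 CPM in heart and 9 and 5 CPM in muscle (difference 2.69 ± 0.31 [3.28 without fed muscle], adjusted p = 7.29e-05). Ppargc1a, a coactivator of mitochondrial genes, stood at 183 and 199 CPM in heart and 85.8 and 46.1 CPM in muscle and Ppara, the receptor that responds to fatty acids, at 63.6 and 46.6 CPM in heart and 21.9 and 11.8 CPM in muscle. Both calls were lost without the fed heart (adjusted p = 0.0598 and 0.067) or the fasting muscle library (0.078 and 0.0621). Of 17 genes of oxygen, iron and redox handling, 3 were called higher in heart and none higher in muscle (median 0.42), with 9 higher in heart under total counts. The share of 3 in 17 is not far from the 11.3% of all genes tested. Myoglobin (Mb), the oxygen store of oxidative muscle, stood at 10940.5 and 10379.8 CPM in heart and 2189 and 1520.3 CPM in muscle (difference 2.56 ± 0.41, adjusted p = 0.000748), and Nnt, the mitochondrial transhydrogenase, at 9.45 and 14.8 CPM in heart and 2.4 and 3.03 CPM in muscle (difference 2.14 ± 0.37, adjusted p = 0.00127). The labels give no substrain beyond C57BL/6, and the methods name the Jackson Laboratory as the source of the mice.

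Of 24 genes of secreted factors and muscle growth, 7 were called higher in heart and 11 higher in muscle, whereas under total counts 10 and 7 were called and the median of -0.57 turned to 0.16. On the heart side stood growth factors, with Fgf1 at 329.8 and 400.2 CPM in heart and 50.8 and 48.9 CPM in muscle (difference 2.88 ± 0.41, adjusted p = 0.000352), Fgf16 at 17.7 and 3.22 CPM in heart and 0.525 and 0.185 CPM in muscle (difference 4.68 ± 0.69 [5.31 without fasting heart, 3.71 without fed heart], adjusted p = 0.000609) and Vegfb, a growth factor of vessels, at 144 and 109 CPM in heart and 51.9 and 41.4 CPM in muscle (difference 1.44 ± 0.30, adjusted p = 0.00416). Fndc5, the precursor of irisin, differed by 2.2 ± 0.28 (adjusted p = 0.000136). On the muscle side stood ubiquitin ligases of muscle wasting. Fbxo32 (atrogin-1) stood at 906 and 6581 CPM in muscle and 274 and 635 CPM in heart (difference -2.84 ± 0.50 [-1.43 without fasting muscle, -3.61 without fed muscle], adjusted p = 0.00141). Trim63 (MuRF1) stood at 402 and 4511 CPM in muscle and 268 and 521 CPM in heart, with differences of -0.58 and -3.12 in the fed and the fasting pair, and its call was lost without the fed heart, fasting heart or fasting muscle library (adjusted p = 0.151, 0.154 and 0.782) and under total counts (0.0922).

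Markers of other cells of the tissues were read as well. The 12 endothelial markers summed to 1714 and 1604 CPM in heart and to 860.2 and 816 CPM in muscle, and 5 of them were called higher in heart (all 12 under total counts), among them the growth factor receptor Kdr at 347 and 194 CPM in heart and 114 and 53.7 CPM in muscle (difference 1.70 ± 0.27, adjusted p = 0.000716). Matrix markers were on the muscle side by level, with sums of 1973 and 1710 CPM in heart against 4336 and 3285 CPM in muscle, 3 of 12 called higher in heart and 4 higher in muscle, and a median of -0.52 that turned to 0.21 under total counts, where 4 and 3 were called. Collagen I genes led, with Col1a1 at 684 and 413 CPM in muscle and 93.7 and 50.8 CPM in heart (difference -2.94 ± 0.23, adjusted p = 5.75e-06). Tcf21, a factor of cardiac fibroblasts and the epicardium, stood at 4.92 and 4.71 CPM in heart with no count in muscle, at least 47.5-fold higher. Of 10 endocardial, epicardial and valve markers, 6 were called higher in heart and 1 higher in muscle, while their sums were 83.5 and 111 CPM in heart against 108 and 122 CPM in muscle. Among those higher in heart, Wt1, of the epicardium, stood at 6.38 and 6.06 CPM in heart and 0.15 and 0.0617 CPM in muscle (a ratio of pooled counts of 61.4 (95% counting interval 20.7 to 300.4), adjusted p = 8.26e-06). The fitted difference of Wt1 was 5.88, and it was 5.25 without fasting muscle and 6.65 without fed muscle. The gene on the muscle side was Nfatc1 (difference -1.54 ± 0.15), whose difference was -0.81 under total counts. Smooth muscle and pericyte markers did not stand apart from all genes, with 1 of 10 called higher in heart (5 under total counts) and none higher in muscle (median 0.51). That gene, Kcnj8, lost its call without the fed heart, fasting heart or fasting muscle library (adjusted p = 0.0604 to 0.147).

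Several atrial markers were lower in the fasting than in the fed heart library. Myl4, an atrial light chain noted after its values were seen, stood at 20.4 and 2.39 CPM in heart and 8.47 and 8.03 CPM in muscle. Beside the fall of Myl7 from 16 to 1.05 CPM, Mybphl, which is atrial in the mouse, stood at 2.04 and 0.374 CPM in fed and fasting heart with no count in muscle, and Sln at 3.89 and 0.15 CPM. The channel gene Kcnj3 was also lower, at 133 and 91.6 CPM in fed and fasting heart. Nppa and Nr2f2 were not lower, with Nppa at 124 and 136 CPM and Nr2f2 at 9.77 and 12.7 CPM in fed and fasting heart. Of 10 atrial markers, 4 were called higher in heart and 1, the vein and atrium factor Nr2f2, higher in muscle (difference -1.37 ± 0.17, and -0.64 under total counts), and their sums were 338 and 271 CPM in heart against 88.8 and 78.7 CPM in muscle. The part that a different share of atrial tissue in the 2 heart pools has in heart genes that shift with fasting was not tested.

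In muscle, markers of satellite cells, fat, nerve and tendon stood higher. Of 7 satellite cell markers, 5 were called higher in muscle and 1 higher in heart. Cdh15 (M-cadherin), with 32.2 and 33.3 CPM in muscle and no count in heart, was at least 318-fold higher. It had the largest fitted muscle difference among genes with at least 10 CPM, but without a heart count the size of that value is not set. Myh4, with counts in both tissues, had a larger fold (747) than this limit. The gene called higher in heart was Vcam1, an adhesion molecule also found on endothelium (1.89 ± 0.30, adjusted p = 0.000659). Of 8 adipocyte markers, 7 were called higher in muscle and none higher in heart, and their sums were 3636 and 2571 CPM in muscle against 61.1 and 142 CPM in heart. Lipe, a lipase that is not limited to fat cells and was not called, stood at 46.9 and 133 CPM in heart and 41.3 and 58.9 CPM in muscle and made up most of the heart sum. Car3 made up most of the muscle sum, with 3409.6 and 2416 CPM in muscle and 9.45 and 8.08 CPM in heart. Its muscle level was 30.7% of its level in white adipose tissue, against 1.18% for Adipoq and 1.41% for Cfd of the same list. Which cells of the muscle samples hold Car3 was not tested. Adipoq, a hormone of fat cells, stood at 29 and 13 CPM in muscle and 0.958 and 0.299 CPM in heart (difference -4.99 ± 0.50 [-6.05 without fed heart, -4.28 without fed muscle], adjusted p = 3.14e-05). Of 9 Schwann cell and nerve markers tested, 4 were called higher in muscle. All 10 listed markers summed to 176 and 161 CPM in muscle against 23.8 and 24.8 CPM in heart, with the myelin gene Mbp at 55.1 and 48.8 CPM in muscle and 2.49 and 2.99 CPM in heart. The 8 tendon markers, of which 6 were called higher in muscle, summed to 474 and 403 CPM in muscle against 22.4 and 13.7 CPM in heart, with Fmod (fibromodulin) at 222 and 188 CPM in muscle and 4.72 and 2.09 CPM in heart. Of 5 brown adipocyte markers, Cidea and Cox7a1 were called higher in heart and Ucp1 higher in muscle, and their median of -0.32 turned to 0.40 under total counts. What part fat, nerve and tendon have in the genes called higher in muscle was not tested.

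Erythroid and macrophage markers stood higher in heart, and lymphocyte markers were mixed. All 6 erythroid genes were called higher in heart, with sums of 1774 and 1817 CPM in heart against 249 and 206 CPM in muscle, and Hbb-bs, of adult beta globin, stood at 1004 and 1038 CPM in heart and 145 and 121 CPM in muscle (difference 2.93 ± 0.32, adjusted p = 5.26e-05). Globin genes have near-identical copies, so single copies are uncertain. Of 10 macrophage markers, 5 were called higher in heart (9 under total counts) and none higher in muscle, with sums of 332 and 308 CPM in heart against 182 and 187 CPM in muscle, and the complement gene C1qb differed by 1.55 ± 0.18 (adjusted p = 9.50e-05). Of 10 lymphocyte markers, 6 were called higher in heart and 1 higher in muscle, but their sum was higher in muscle, with 88.1 and 72.7 CPM against 35.1 and 24.6 CPM in heart. Those higher in heart were at low levels such as 2.3 and 2.39 CPM in heart and 0.525 and 0.0617 CPM in muscle for Cd79b of B cells. Ighm, an immunoglobulin gene and the gene on the muscle side, stood at 86.1 and 72.2 CPM in muscle and 23.6 and 14.5 CPM in heart, and its call was lost without the fed heart or the fasting heart library (adjusted p = 0.0501 to 0.0664). What part blood in the samples has in these calls was not tested.

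A share of the called genes had their main level in another tissue. Of the heart genes, 840 (31.6%) had their highest level of 8 tissues in heart, against 8.01% of all genes tested, and of the 2115 muscle genes, 1280 (60.5%) had it in muscle, against 14%. Of the heart genes, 163 (6.13%) stood in heart at under 1% of the level in their highest tissue, which was kidney for 73, spleen for 49, lung for 29 and liver for 12. Of the muscle genes, 39 (1.84%) stood so in muscle, with the highest level in liver for 28, brown adipose tissue for 7 and white adipose tissue for 4. The surfactant gene Sftpc of lung alveoli was read at 10.2 and 14 CPM in heart, 0.332% of its lung level, with no count in muscle, and Acsm2, an acyl-CoA ligase of kidney, at 10.9 and 12.6 CPM in heart, 0.257% of its kidney level, with no count in muscle. All 8 lung epithelium markers were called higher in heart (median 8.45), with sums of 55.0 and 83.4 CPM in heart, 0.375 and 0.617 CPM in muscle and 57.0 and 81.8 CPM in brown adipose tissue. With the markers that had no count in muscle set at the limit of a floor of 3 counts, this median was 5.17. Ucp1 of brown fat stood at 2.62 and 4.69 CPM in muscle and 0.0638 and 0.0748 CPM in heart, which is 0.134% of its brown adipose level in muscle. These genes pass the test between the tissues at levels far below those of the tissue that makes them, and the source of the reads was not tested. Without such genes 2494 heart genes and 2076 muscle genes were called.

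**Figure D5:**
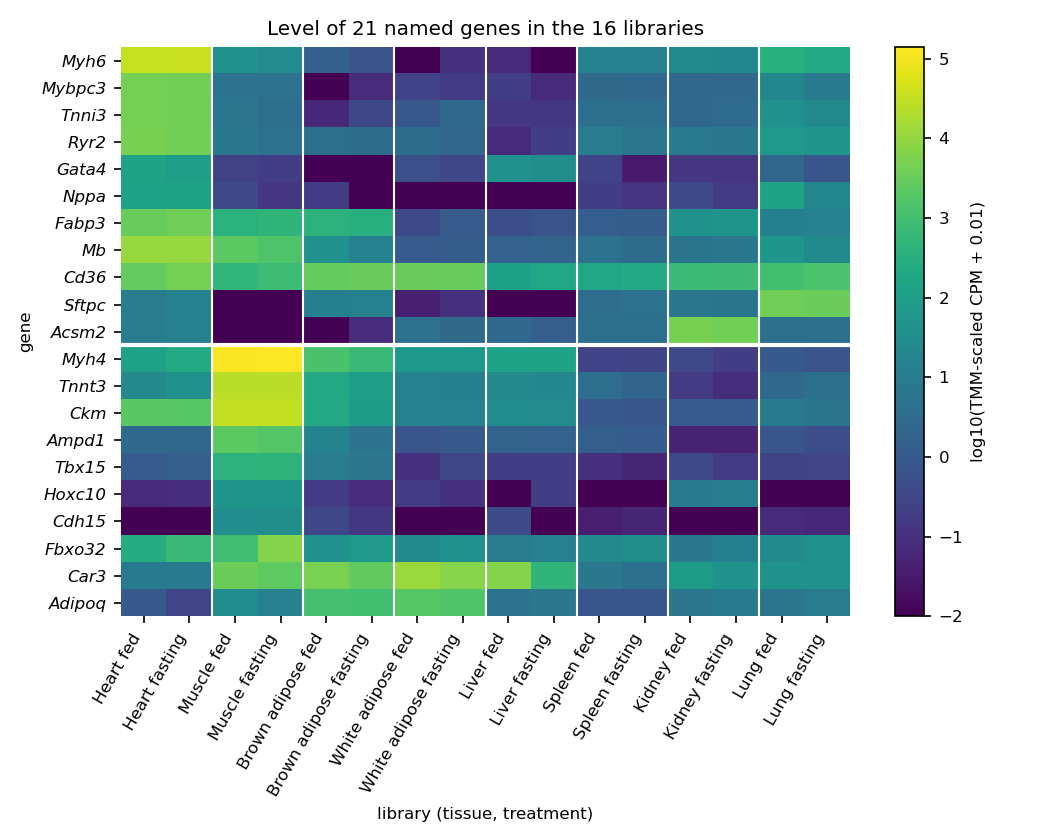
Levels (CPM + 0.01, log10 colour scale) of 21 named genes are drawn in the fed and the fasting library of all 8 tissues. The heart and muscle markers are brightest in their own tissue, Myh4 is also visible at a low level in liver and adipose tissue and Myh6 in lung, spleen and kidney, and Sftpc and Acsm2 peak in lung and kidney.

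Beyond the genes already named, the largest differences included genes with little known function. Among the 10 heart genes of at least 10 CPM with the largest fitted difference stood Lrrc10, a leucine-rich repeat protein of cardiomyocytes, at 116 and 132 CPM in heart and 0.075 and 0 CPM in muscle (a ratio of pooled counts of 3644 (95% counting interval 654 to 143952)), the neural adhesion gene Cntn5, with 11.6 and 11.3 CPM and no count in muscle (at least 113-fold), and the unnamed transcripts AC158549.1, Gm47494 and 1010001N08Rik, each with no count in muscle and at least 132-fold, 138-fold and 125-fold higher in heart. The fitted difference of Lrrc10 was 11.64, and it was 10.63 without fasting muscle and 14.67 without fed muscle, which held its only muscle counts. The 10 muscle genes included the channel genes Kcnf1, with 16.2 and 25.9 CPM, and Cacna2d4, with 21.7 and 12.1 CPM, both with no count in heart (at least 208-fold and 159-fold higher in muscle). Ppp1r27, a phosphatase regulator, stood at 184 and 111 CPM in muscle and 0 and 0.15 CPM in heart and was not called with DESeq2 (adjusted p = 0.152), and the transcript 2310065F04Rik at 215 and 71.2 CPM in muscle and 0 and 0.15 CPM in heart.

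The difference between the tissues was not the same in fed and fasting mice for all genes. Over the 4772 called genes the median shift between the pairs was 0.470 in size, and 1162 of them (24.4%) shifted by more than 1. Among genes with at least 10 CPM in the higher tissue, 115 heart genes and 138 muscle genes shifted by more than 1, and 23 and 33 by more than 2. The shift rests on 1 library for each tissue and treatment and has no replicate check. Myh7 differed by 1.43 in the fed pair and 4.94 in the fasting pair, with levels of 518 and 2145 CPM in heart and 192 and 69.6 CPM in muscle, and its call was lost without the fasting heart (adjusted p = 0.0866) or the fasting muscle library (0.102). The transcript D830005E20Rik stood at 142 and 167 CPM in heart and 0.3 and 0 CPM in muscle. The homeobox gene Irx5 stood at 14.9 and 14 CPM in heart and 0.075 and 1.05 CPM in muscle and Epn3, an endocytic adaptor, at 31.2 and 24.1 CPM in heart and 0.15 and 0 CPM in muscle. For D830005E20Rik and Epn3 the muscle levels were a few counts or none, and these set the size of the shift. For Irx5 the fed muscle level was as low. Its fitted difference of 4.61 was 7.60 without fasting muscle and 3.69 without fed muscle.

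On the muscle side, the shift was largest for Myh8, the perinatal myosin heavy chain, at 83.2 and 95 CPM in muscle and 0.447 and 0 CPM in heart, with the heart value at or near no counts. The calcium pump Atp2b3 of the plasma membrane stood at 28.6 and 27.5 CPM in muscle and 0 and 0.449 CPM in heart, and the factor Sim2 at 36.7 and 39.1 CPM in muscle and 0.383 and 0 CPM in heart. Here too the heart levels were so low that a few counts set the size of the shift. Genes whose direction turned between the pairs were left out of the 16983, among them Ddit4 and Depp1, both responsive to fasting signals, which were higher in heart when fed and higher in muscle after the fast.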

How the data were processed

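Short-read RNA-Seq was done by the authors on 16 libraries, and the 4 of heart and muscle were grouped by their labels. Reads were strand-specific and paired. Per the submitters' processing notes and the methods, the authors used fastp 0.23.2 for trimming, FastQC 0.11.8 for quality, HISAT2 2.2.1.0 for alignment (GRCm38) and featureCounts (Subread 2.0) with the GENCODE annotation for counting. The deposited values are these raw counts, with no normalization. The table also gives an exon length for each gene, an other value that the counting program of the authors wrote and that was used here for RPKM. Whether reads or pairs were counted, and the strand setting, are not given in the sources used here. No column of the table went unused. Symbols were matched by identifier, 54487 of 55385 with the version and 55144 without it.

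The model was fitted in edgeR 4.0.16 under R 4.3.3 to all 16 libraries (TMM, filterByExpr, quasi-likelihood test, Benjamini-Hochberg adjustment over 23580 genes) on tissue and treatment, with 7 residual degrees of freedom and a common coefficient of variation of 0.219, and heart minus muscle was tested. The fit was tested on simulated data. TMM factors were 0.910 and 0.876 for fed and fasting heart and 0.554 and 0.524 for muscle. Pairs were compared as log2(CPM + 0.01). The floor is 3 counts over both libraries of a tissue, and 3 counts correspond to 0.174 and 0.197 CPM in the heart libraries and 0.125 and 0.0970 CPM in the muscle libraries before TMM scaling. A fold against a tissue with no count uses this floor. Intervals of count ratios are exact at 95%, and intervals and floors cover counting error only. Alternatives were total counts, a library size without the 10 highest genes, DESeq2 1.42.0, other filters and thresholds, the 4 libraries alone, no treatment term, a robust fit, Fisher's exact test in each pair and each library left out. Figures were drawn with matplotlib 3.10.9.

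The direction rule, the pairs of genes and the 35 lists were chosen with earlier results of these data known. The genes named are the markers, both members of each pair, up to 3 called members of a list and direction with the highest RPKM, called members against the main direction of their list, the 10 largest differences and the 5 largest shifts per direction among called genes of at least 10 CPM in both libraries of the higher tissue, the 3 largest turns of sign per direction, and the 2 highest members of each list of other cell types. Mybpc1, and the band of low levels to which it belongs, were picked after the values were seen. A few genes that this rule selects are not reported here, though they remain in the counts. Promoter and microRNA sequences are from RefSeq (GRCm38.p6).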

Additional observations from a re-analysis of the deposited data

Results flagged for a closer look

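The following 6 genes differed between heart and muscle in opposite directions in the fed and the fasting pair. Each direction rests on 1 library per tissue and treatment, so the difference between the pairs was not tested. Log2 differences are heart minus muscle.

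Ddit4, an inhibitor of mTORC1 that glucocorticoids raise, was read at 26 and 81.9 CPM in heart and 8.4 and 312 CPM in muscle, a difference of 1.63 in the fed pair and -1.93 in the fasting pair. Its level was higher after the fast in both tissues and by far more in muscle. Depp1, a target of Foxo factors, had the same pattern, with 19.6 and 111 CPM in heart and 6.82 and 463 CPM in muscle and differences of 1.52 and -2.06. Plekhh1 was read at 11.6 and 1.42 CPM in heart and 2.77 and 4.32 CPM in muscle, with differences of 2.05 and -1.60, so that it was lower after the fast in heart and higher in muscle.

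Gm8325, an unnamed transcript, was read at 2.23 and 6.43 CPM in heart and 13.3 and 3.33 CPM in muscle, with differences of -2.56 and 0.95. Trarg1, a regulator of glucose transporter traffic, was read at 3 and 10.1 CPM in heart and 7.8 and 5.8 CPM in muscle, with differences of -1.37 and 0.80. Ahsg, a plasma protein of the liver, was read at 2.75 and 14.9 CPM in heart and 10.8 and 8.89 CPM in muscle, with differences of -1.97 and 0.74. These levels are 0.0950% of its liver level in heart and 0.106% in muscle, and the source of such reads was not tested. These 3 genes were higher after the fast in heart and lower in muscle.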

How the results depend on the processing

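The counts of 2657 heart genes and 2115 muscle genes stayed within 1.5 times of themselves with DESeq2, without a filter, with a filter at 1 CPM, on the 4 libraries alone, without the treatment term, with a robust fit, without the direction rule and without genes at under 1% of their highest tissue. Total counts gave 6544 heart genes and 1085 muscle genes, a library size without the 10 highest genes gave 4071 heart genes, no fold threshold gave 3556 muscle genes, a log2 difference above 2 gave 1340 and 1087, and Fisher's exact test in both pairs gave 7864 and 1179. Leaving out 1 library gave 1825 to 2353 heart genes and 1618 to 1887 muscle genes. Of 204 named genes called, 174 were called under each alternative run for single genes (total counts, DESeq2, no treatment term, the 4 libraries alone and each library left out), and none of the 204 turned direction under these. Leaving out 1 library moved the fold of 59 of the 204 by over 1.5 times, and 32 of the 59 had under 20 counts in the lower tissue.

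Reversals were seen for genes that were not called. Under total counts the log2 difference became 0.58 for Tmod1, 0.13 for Lmod3, 0.25 for Dcn, 0.62 for Abcc9, 0.057 for Ddit4, 0.51 for Trarg1 and 0.59 for Ahsg, as the shift of all genes under this scaling moves them up. Leaving out 1 library gave -0.60 to 0.21 for Tmod1, -2.58 to 2.25 for Sln, -0.29 to 0.064 for Abcc9, -1.64 to 1.38 for Ddit4, -1.62 to 2.09 for Plekhh1, -2.11 to 1.58 for Depp1, -2.02 to 0.36 for Gm8325, -0.97 to 0.41 for Trarg1 and -2.05 to 0.83 for Ahsg. The main fit pairs heart with muscle by treatment, and without this term 2494 and 2018 genes were called. With a replicate block, no paired analysis was possible because the replicate number is the same in all groups. With 0 counts in the muscle libraries a level of under 3 counts over both was not detectable.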
